A study of Mus musculus with 3 samples.

Results

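Lone pairs are 2 neighbouring CCCGGG sites, 500 bp or less apart, that stand alone in the genome: no other listed CCCGGG site lies within 1000 bp of either. They were described in ID8, an ovarian cancer cell line of C57BL/6 mice that the labels call mouse ovarian surface epithelial cells, female and untreated. Of 32114 adjacent pairs of listed sites that close on chromosomes 1 to 19, 8220 were lone, and 2722 lone pairs had at least 10 reads at both sites in each of 3 libraries. These 2722 covered lone pairs hold 5444 sites, or 23.0% of the 23638 covered autosomal sites. The 3 libraries form the only group, with no control, and the labels do not say that they came from separate cultures; their spread may then be technical. The files hold methylation only, so the cell type was not checked against markers.

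CCCGGG is cut by SmaI only when its central CpG is unmethylated and by XmaI in either state, which is the principle of digital restriction enzyme analysis of methylation (DREAM). After digestion first by SmaI and then by XmaI, a fragment end that reads GGG marks an unmethylated site and an end that reads CCGGG a methylated one. The methylation level of a site is the percent of its reads that are methylated.

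In mammalian cells most CpGs are methylated, and DNMT1 copies the state of the parent strand after replication, while unmethylated CpGs gather in CpG islands, which often hold gene promoters. Neighbouring CpGs therefore tend to share a state, and the state changes at the borders of islands and of other regulatory regions. Lone pairs allow the likeness of neighbours to be read at a fixed local number of listed sites, 2, so that distance varies while the number of SmaI sites does not. The deposited files name no genes and no annotation of their build, mm9, was used here, so the genes around these pairs are not named and only the recognition sequence is printed.

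Coverage depended on the distance within the pair. Of 2434 listed lone pairs 100 bp or less apart, 3 were covered (0.123%), 17, 92 and 94 bp apart, against 2719 of 5786 pairs over 100 bp apart (47.0%). Covered pairs were thus almost all over 100 bp apart, with a median distance of 286 bp. Longer distances were divided into bins of 50 bp, each named by its longest distance, so that the 150-bp bin holds pairs over 100 and up to 150 bp apart. Both sites were covered in 36.5% of listed pairs of the 150-bp bin and in 58.2% of the 350-bp bin. The median read count of the less read site, as the sum of 3 libraries, was 103 in the 150-bp bin, 1856 in the 350-bp bin and 809 in the 500-bp bin. Depth was therefore highest in the middle of the range, and the closest pairs rest on the fewest reads.

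**Figure D1:**
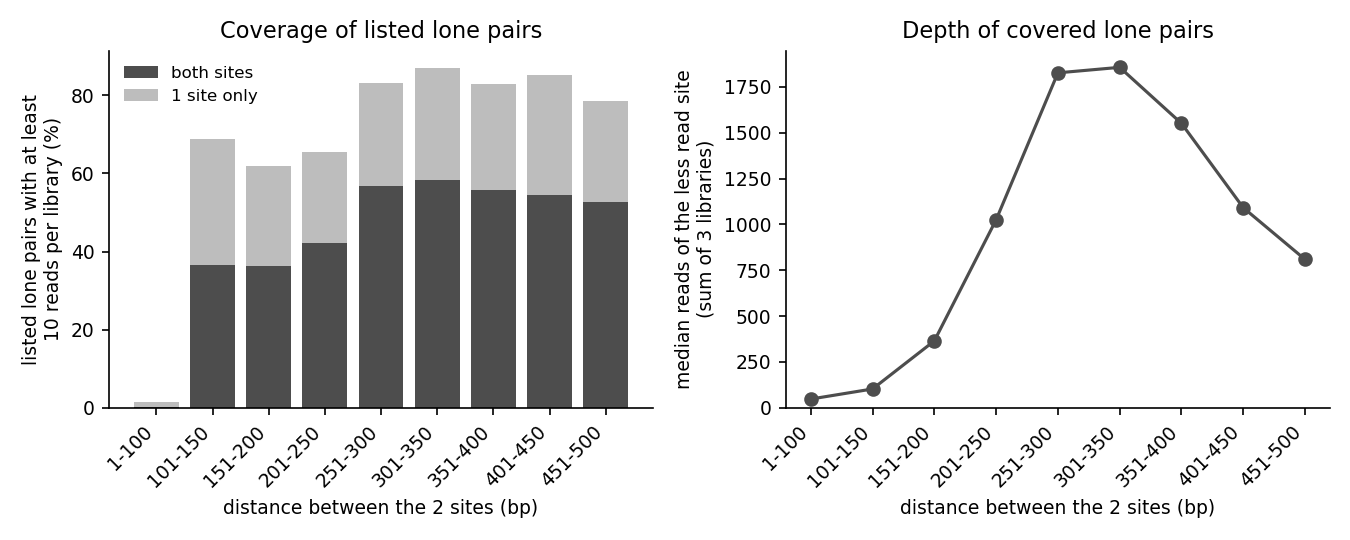
Left, the share of listed lone pairs with at least 10 reads in every library at both sites (dark) or at 1 site only (light), by distance in bp; right, the median summed reads of the less read site of covered pairs. Pairs up to 100 bp apart were nearly absent, and depth was highest in the 300-bp and 350-bp bins.

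In 1608 further listed lone pairs (19.6%) only 1 site was covered, and 1576 of these were over 100 bp apart. The covered site of these pairs had a median of 783 summed reads and its partner 6. The covered sites averaged 47.5% methylation, with 40.9% of them low (under 10%) and 42.7% high (70% or more), so both states were about as frequent there. Of the 32 such sites in pairs up to 100 bp apart, 90.6% were high. Replicate 1 had 7689526 reads over all sites, replicate 2 had 9190335 and replicate 3 had 10361138, of which lone pairs held 27.3%, 27.7% and 27.7%. The median site of a covered lone pair had 304, 369 and 413 reads.

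Most lone pairs were alike at both sites. Both sites were low in 721 pairs (26.5%) and both were high in 741 (27.2%). In 465 pairs (17.1%) a low site faced a high one, and these are called discordant. The other 795 (29.2%) are called partial, because at least 1 of the sites lay between 10% and 70%. The exact Clopper-Pearson interval (95%), which takes pairs as independent, was 15.7% to 18.6% for the discordant share. Classed in each library by itself, the shares were 26.4% ± 0.112 both low, 27.4% ± 0.350 both high, 16.9% ± 0.139 discordant and 29.3% ± 0.367 partial (SD, n = 3). The libraries thus gave nearly the same make-up, and 95.4% of the both-low pairs, 97.2% of the both-high pairs, 88.8% of the discordant pairs and 87.9% of the partial pairs kept their class in every library.

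The level of the 5444 sites averaged 47.3% ± 0.162 (SD, n = 3), with 40.3% of sites low and 42.5% high. The mean absolute difference between the sites of a pair was 29.3 percentage points ± 0.0580 (SD, n = 3), while the median was 10.3 points: 41.4% of pairs differed by less than 5 points and 26.3% by more than 50. The difference therefore came from a minority of pairs with opposite or mixed states. Pearson's r between the levels of the 2 sites was 0.451 across the 2722 pairs, which share libraries and, as ends of the same fragments, may share molecules.

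Facing sites of successive lone pairs of a chromosome, which have the same number of near neighbours but lie further apart, were less alike. Within lone pairs the mean absolute difference was 29.3 points, against 47.3 ± 0.0842 (SD, n = 3) between the 2703 successive pairs, whose median distance was 297638 bp. Within minus between pairs this came to -18.0 ± 0.105 points (SD, n = 3), negative in 3 of 3 libraries. An exact two-sided sign-flip test of the 3 library values gave p = 0.25, the smallest p that 3 libraries allow, so no comparison over libraries can pass 0.05 here. A low site faced a high one in 17.1% of lone pairs and in 33.4% of the successive pairs. Between successive pairs 1 to 10 kb apart the mean difference was 40.9 ± 0.817 points (n = 97) and at 10 to 100 kb it was 46.7 ± 0.157 (n = 574). Pearson's r was 0.188 at 1 to 10 kb and 0.0241 at 10 to 100 kb, so levels of lone sites over 10 kb apart were nearly unrelated.

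Across all covered lone pairs up to 500 bp apart, the discordant share was mostly higher at longer distances. Pairs with nearly equal reads at both sites are treated separately below. Discordant pairs made up 10.7% of the 299 pairs in the 150-bp bin, with an SD of 0.885 points over the libraries, and 13.0% of the 399 pairs in the 200-bp bin. The share was 16.6% in the 250-bp bin, 17.4% in the 300-bp bin, 19% in the 350-bp bin and 18.3% in the 400-bp bin. It was 21.0% in the 450-bp bin and 22.0% in the 500-bp bin, with an SD of 0.780 points in the last. The exact 95% intervals of the first and the last bin, 7.44% to 14.8% and 17.4% to 27.1%, did not overlap. These intervals take pairs as independent and cover counting error only, so they are no test of distance. Depth also differed, with a median of 103 summed reads at the less read site in the first bin and 809 in the last. Both-low pairs took the other course, with 30.1% in the 150-bp bin, 33.6% in the 200-bp bin and 18.9% in the 500-bp bin. Both-high pairs showed no such course, with 29.4% in the 150-bp bin, 24.7% in the 400-bp bin and 29.4% in the 500-bp bin. The partial share lay between 26.8% and 31.1% in these bins. With at least 50 reads in each library the discordant share was 8.33% of 48 pairs in the 150-bp bin, 5.46% of 293 in the 200-bp bin, 11.6% of 362 in the 250-bp bin and 20.5% of 254 in the 500-bp bin. The order of the 150-bp and 200-bp bins thus changed with the read minimum. Just past the distance limit the share was not higher still. It was 27.5% of 120 lone pairs over 480 and up to 500 bp apart. Over 500 and up to 520 bp apart it was 11.8% of 93 pairs.

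The mean absolute difference was 23.3 points in pairs 150 bp or less apart and 32.9 points in pairs over 300 bp apart. Near minus far pairs gave -9.59 ± 0.276 points (SD, n = 3), negative in 3 of 3 libraries, with an exact sign-flip p of 0.25. Pearson's r between the levels of the 2 sites was 0.603 across the 299 pairs of the 150-bp bin and 0.326 across the 296 pairs of the 500-bp bin. Distance was not the only property that changed along this range. Pairs whose more read site had at most 1.25 times the reads of the other are called read-balanced here, a limit chosen after the data were seen. They made up 75.9% of the 150-bp bin, 61.9% of the 300-bp bin and 57.8% of the 500-bp bin.

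Among the 1733 read-balanced pairs the pooled near and far pairs had like mean differences, while single bins differed. The mean absolute difference was 17.4 points in pairs 150 bp or less apart and 17.4 points in pairs over 300 bp apart, so that near minus far pairs gave -0.00864 ± 0.0865 points (SD, n = 3; exact sign-flip p = 1). By bin it was 17.4 points in the 150-bp bin, 11.9 in the 200-bp bin, 13.7 in the 250-bp bin and 14.2 in the 300-bp bin. It was 15.2 points in the 350-bp bin, 14.7 in the 400-bp bin, 19.1 in the 450-bp bin and 21.2 in the 500-bp bin. From the 200-bp bin on, the difference was thus larger at the longest distances, and the 150-bp bin did not follow this course. Their discordant share was 4.85% in the 150-bp bin, 2.49% in the 200-bp bin, 3.35% in the 250-bp bin and 3.62% in the 300-bp bin. It was 4.90% in the 350-bp bin, 3.89% in the 400-bp bin, 6.18% in the 450-bp bin and 12.3% in the 500-bp bin. The last bin holds 21 discordant pairs of 171, with an exact interval of 7.77% to 18.2%, which overlaps that of the 450-bp bin, 3.12% to 10.8%. Among the 989 pairs with unequal reads the discordant share was 29.2% in the 150-bp bin, 41.8% in the 250-bp bin and 35.2% in the 500-bp bin.

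**Figure D2:**
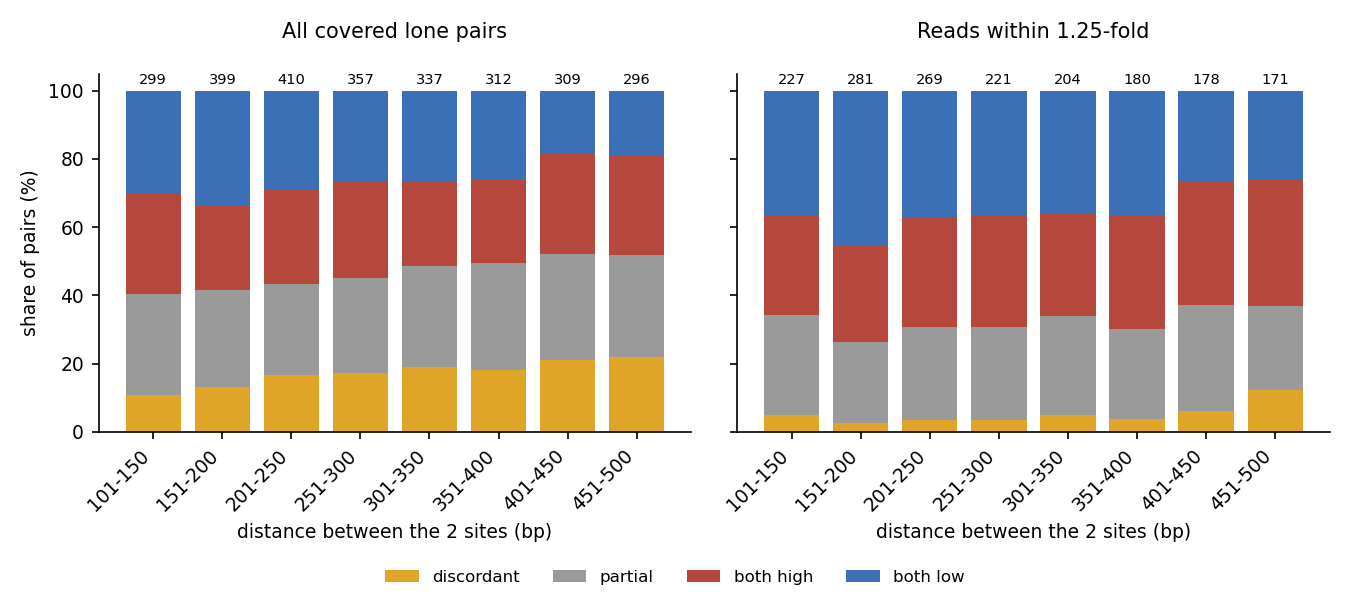
Share of covered lone pairs (%) in each class by distance in bp, for all pairs (left) and for pairs whose sites had reads within 1.25-fold (right), with the number of pairs above each bar. The discordant share was 10.7% in the first bin and 22.0% in the last for all pairs and, for read-balanced pairs, 2.49% to 6.18% up to 450 bp and 12.3% in the last bin.

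Read balance differed widely between the classes, whose median distances lay between 262 and 316 bp. Reads of a lone pair can come from the fragment between its sites, because the next listed site is over 1000 bp away, and such a fragment has 1 end at each site. In both-low pairs the more read site had 1.02 times the reads of the other (median), and 86.4% of the pairs were read-balanced. In both-high pairs the median ratio was 1.04 and 74.8% were read-balanced, and in partial pairs it was 1.09 with 59.4%. In discordant pairs the median ratio was 2.88, and 84 of 465 (18.1%) were read-balanced, while 290 (62.4%) had a ratio above 2. Counted in each library by itself, the read-balanced share was 18.6% ± 0.691 of the discordant and 85.9% ± 0.212 of the both-low pairs (SD, n = 3). Of all discordant pairs, 81.9% were thus among the 989 pairs with unequal reads, which were 38.5% discordant, against 4.85% of the read-balanced pairs. Whether the unequal reads or the discordance has a part in the other was not tested.

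**Figure D3:**
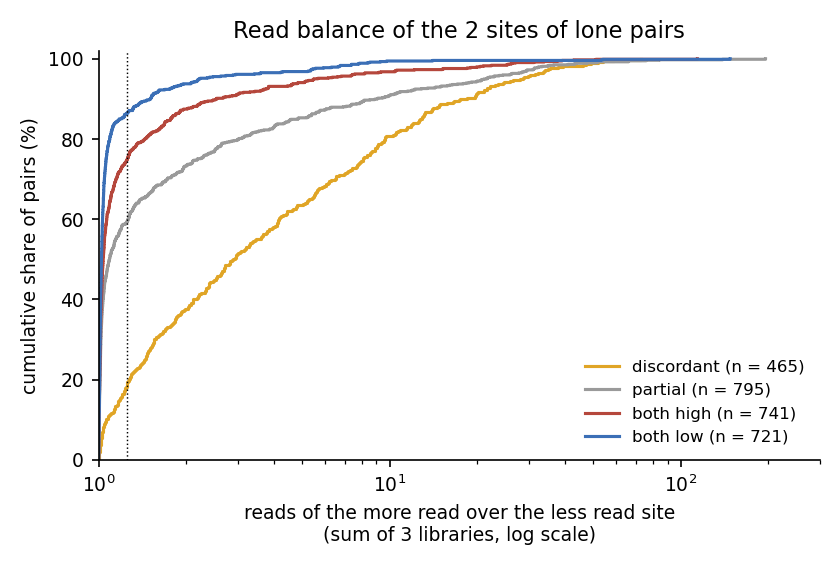
Cumulative share of lone pairs (%) against the ratio of summed reads of the more read to the less read site (log scale), one line per class, with a dotted line at 1.25. The line of the discordant pairs lies below the others: 18.1% of them were within 1.25-fold, against 86.4% of the both-low pairs.

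In discordant pairs the high site had more reads in 291 and the low site in 174. The median was 950 summed reads at the high site and 586 at the low site. The excess was therefore found on either side, and among the 89 discordant pairs over 10-fold apart it was at the high site in 51 and at the low site in 38. The high site came first along the chromosome in 237 discordant pairs and second in 228. On chromosome 9 the site at position 46426228 (mm9) had 7.34%, 6.89% and 8.0% methylation from 790, 929 and 1062 reads in replicates 1, 2 and 3. Its partner at 46426545 had 100%, 100% and 92.9%, but from 10, 14 and 14 reads. On chromosome 5 the order was the other way, with 90.9%, 90.9% and 90.3% at 116005026 from 816, 868 and 1033 reads, and 5.88%, 0% and 0% at 116004651 from 17, 11 and 15 reads. In both pairs the library levels did not overlap between sites, which the limits of the discordant class nearly ensure. Of each pair 1 site rests on only 38 or 43 summed reads. These are the discordant pairs with the most unequal reads, chosen after their values were seen. By the authors' adjusted percent the site at 46426228 had 12.9%, so that the pair on chromosome 9 left the class.

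In most lone pairs, read-balanced or not, at least 1 site was low or high. Both sites were between 10% and 70% in 141 pairs. These were 130 of the 1733 read-balanced pairs and 11 of the 989 others. Of the 472 partial pairs that were read-balanced, these 130 had 2 partial sites. Of the 323 partial pairs with unequal reads, all but the 11 therefore had 1 site that was low or high. Pearson's r between the 2 sites was 0.780 across the 1733 read-balanced pairs and -0.125 across the 989 others.

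**Figure D4:**
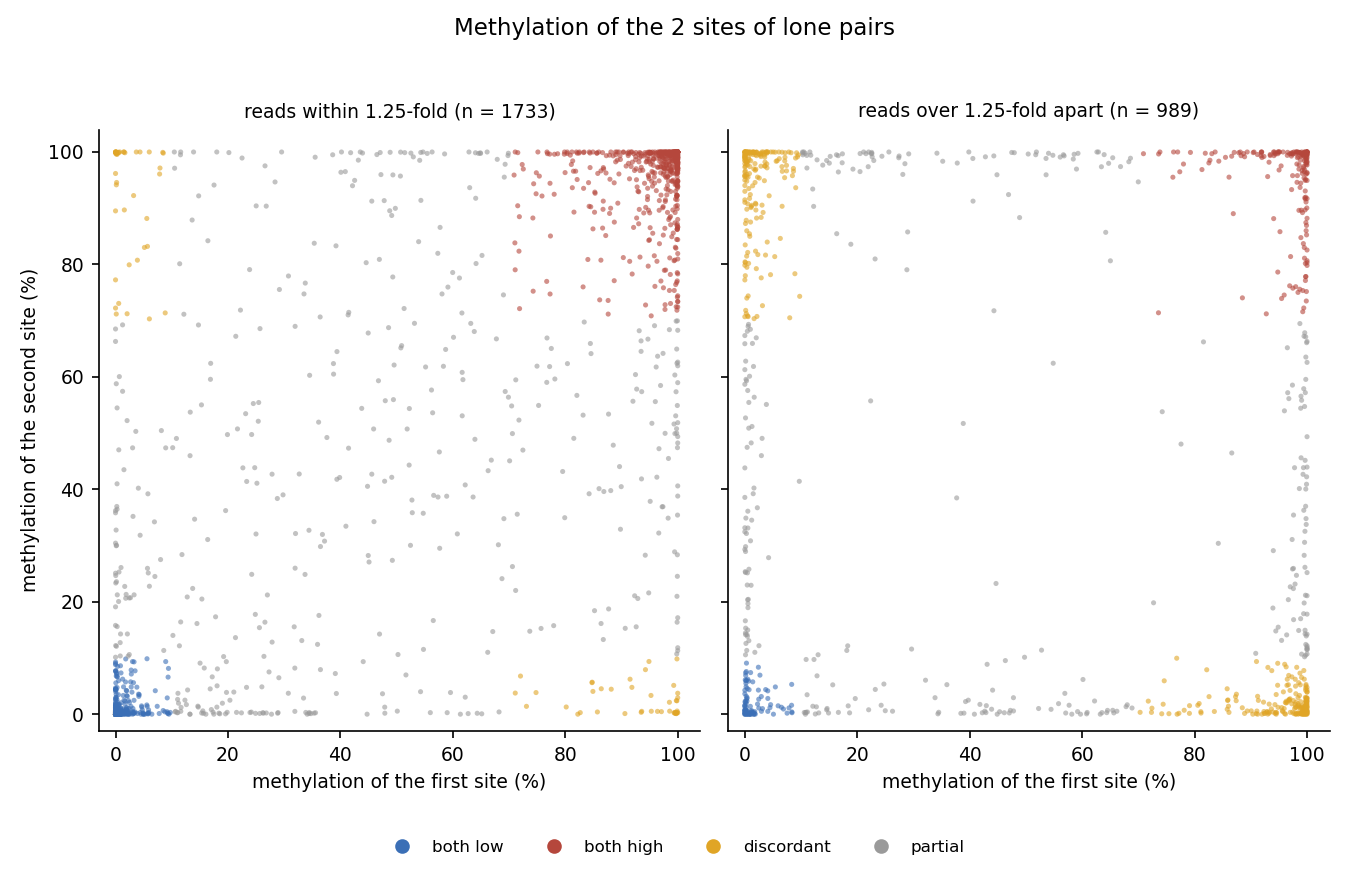
Methylation (%) of the first site against the second site of each lone pair, as means of 3 libraries, for pairs with reads within 1.25-fold (left, n = 1733) and further apart (right, n = 989), coloured by class. Read-balanced pairs gather mostly in the low and high corners, with 35.9% both low, 32.0% both high and 4.85% discordant. Of the other pairs 9.91% were both low, 18.9% both high and 38.5% discordant. Most partial pairs of either set had 1 site that was low or high.

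The 2 sites were also compared pair by pair, with Fisher's exact test in each library and Benjamini-Hochberg adjustment over all 8558 adjacent covered pairs 500 bp or less apart. A pair was called when the adjusted p was under 0.05 in every library, with 1 direction, and the mean levels differed by at least 20 points. Of the lone pairs 1063 (39.1%) were called, against 29.0% of all adjacent covered pairs and 24.4% of the 5836 others. The call took in all 465 discordant pairs, which meet the size limit by definition, 547 of the 795 partial pairs, 51 both-high pairs and 0 both-low pairs. Without the adjustment, the direction and the size limit 1551 of the 2722 lone pairs had an unadjusted exact p under 0.05 in each library. The same count over all adjacent covered pairs is not given, so this number cannot be read as particular to lone pairs. Of the called pairs 663 were among the 989 with unequal reads and 400 among the read-balanced ones. Where libraries differed, the spread at a site was small beside these differences: the median SD between libraries was 0.159 points at sites of both-low pairs, 0.528 at both-high, 0.597 at discordant and 1.5 at partial pairs.

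Among the 8 deepest discordant pairs, by the reads of the less read site, 6 were read-balanced, and the largest read ratio was 1.34. Such a ranking passes over pairs with few reads at 1 site. Of all 465 discordant pairs 18.1% were read-balanced and 62.4% had a ratio above 2. On chromosome 5 the site at 137304930 (mm9) had 1.89%, 1.21% and 1.89% methylation in the 3 libraries, and the site 302 bp further, at 137305232, had 99.9%, 99.9% and 99.8%. They rest on 4151 and 3576 summed reads. On chromosome 19 the site at 44821183 had 99%, 98.3% and 97.9% and the site at 44821559 had 0.398%, 0.0928% and 0.274%, with 4072 and 3177 summed reads. On chromosome 1 the site at 174420320 had 97.4%, 97.2% and 96.7%, and the site 323 bp further had 0.597%, 0.392% and 0.361%, with 3031 and 2966 summed reads. In these 3 pairs the state turned over almost wholly within 302 to 376 bp. Library values did not overlap between the sites, which the limits of the discordant class nearly ensure.

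The other deep discordant pairs had 1 or both sites short of the extreme. On chromosome 19 the level was 0.111% ± 0.0320 at 27306292 and 87.3% ± 1.07 at 27306640 (SD, n = 3), and on chromosome 11 it was 7.84% ± 0.488 at 52248806 and 96.1% ± 0.0519 at 52249111. A second pair of chromosome 1 had 5.68% ± 0.472 at 167592759 and 83.2% ± 1.42 at 167593073. On chromosome 14 the sites at 33438275 and 33438578 had 0.130% ± 0.0436 and 71.2% ± 1.82, and on chromosome 13 those at 38580498 and 38580733 had 72.0% ± 1.32 and 6.78% ± 0.475. The high sites of the pairs on chromosomes 13 and 14 thus lie just inside the high class. By the authors' adjusted percent the low sites at 52248806, 38580733 and 167592759 had 13.6%, 11.9% and 10.03%, so that 3 of the 8 deepest discordant pairs left the class. Over all discordant pairs the median levels were 1.21% and 97.8%, and 89 pairs had 1 site under 1% and the other over 99%.

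The closest discordant pairs that were called lay 113 to 120 bp apart, and their sites had 57 to 96 summed reads. On chromosome 11 the site at 35438793 had 0% in each library and that at 35438908 had 100%, 100% and 96.6%, from 59 and 74 summed reads. The exact 95% intervals, which cover counting error only, were 0% to 6.06% and 92.7% to 100%. On chromosome 5 the site at 117495803 had 100% in each library and that at 117495916 had 0%, 6.67% and 0%. On chromosome 12 the levels were 6.00% ± 3.46 at 30517197 and 100% at 30517312. By the authors' adjusted percent the site at 30517197 had 10.3%, so that this pair left the class. The pair on chromosome 1 starting at 82493775 had 88.2% ± 2.86 and 4.44% ± 5.09, and that on chromosome 7 starting at 142681612 had 2.06% ± 1.94 and 71.2% ± 7.45 (SD, n = 3). A change from low to high was thus found within 113 bp, but at these distances each level rests on 14 to 43 reads per library. The read ratio was 1.53 in that pair, on chromosome 5, and 1.254 in the pair on chromosome 11, so neither was read-balanced. In the pairs on chromosomes 1, 7 and 12 it was 1.08 to 1.18.

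Concordant pairs were close to the ends of the scale. The median level was 0.203% at sites of both-low pairs and 98.3% at sites of both-high pairs. In 492 of the 721 both-low pairs both sites were under 1%, and in 68 no methylated read was counted at either site. Both sites were above 90% in 499 of the 741 both-high pairs, and in 21 no unmethylated read was counted. The deepest both-low pair lay on chromosome 19 at 4214262 and 4214598, with 0.0719%, 0.0683% and 0.114% at the first site and 0%, 0.102% and 0.0861% at the second. Its sites had nearly equal numbers of reads, 9230 and 9218. The next 4 both-low pairs by depth, on chromosomes 19 (starting at 60865985, 44826799 and 57082660) and 15 (at 78860876), lay between 0.0434% and 0.312%.

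The deepest both-high pair lay on chromosome 15, where the site at 79794903 was methylated in all 4830 reads (exact interval 99.9% to 100%). The site at 79795212 had 98.1%, 97.7% and 98.2%. On chromosome 11 the sites at 116083142 and 116083421 had 81.8% ± 1.94 and 96.6% ± 0.394 (SD, n = 3), and on chromosome 15 those at 96873667 and 96874027 had 87.3% ± 0.489 and 99.3% ± 0.242. Sites that share the high class could thus differ by more than the spread between libraries. In each of the 5 deepest both-high pairs the largest adjusted exact p of the 3 libraries was under 0.05, with differences of 2.02 to 14.7 points, below the 20 points that a call needed.

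Most partial pairs had 1 partial site, while 17.2% of all sites of lone pairs were partial. Whether partial sites stood together more often than this share would give was not tested. A low site stood beside a partial one in 289 pairs and a high site beside a partial one in 365, and both were partial in 141. Those 141 pairs averaged 39.6% and their sites differed by 14.7 points (median), with 55 within 10 points and 40 called. Pearson's r between their 2 levels was 0.241 across the 141 pairs, a range already narrowed by the class limits. On chromosome 10 the sites at 4665380 and 4665637 were alike, with 16.6%, 18.7% and 18.0% at the first and 15.4%, 17.6% and 18.9% at the second; the library ranges overlap, and the pair was not called (largest adjusted exact p = 0.758).

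Other deep pairs with 2 partial sites differed. On chromosome 15 the sites at 98322922 and 98323291 had 49.2% ± 0.281 and 27.4% ± 1.90 (SD, n = 3), and those at 98663399 and 98663645 had 21.4% ± 1.27 and 67.2% ± 3.20. On chromosome 19 the sites at 56395116 and 56395394 had 16.9% ± 1.34 and 59.6% ± 1.19. The sites at 46826534 and 46826819 had 36.2% ± 0.656 and 17.6% ± 0.685. These sites had nearly equal reads, with ratios of 1.0 to 1.01, so 2 ends with the same number of reads could differ in methylation by 18.6 to 45.8 points.

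Of the deep pairs with 1 partial site, that on chromosome 7 had the widest step. The level was 86.2%, 88.3% and 85.7% at 87145417 and 12.8%, 12.7% and 14.3% at 87145719, from 4449 and 4397 summed reads. On chromosome 15 the site at 12323406 had 58.6% ± 0.383 beside 99.6% ± 0.159 at 12323698. On chromosome 11 the site at 55172814 had 24.9% ± 2.22 beside 0.147% ± 0.0760, and the site at 5545258 had 34.2% ± 0.862 beside 6.92% ± 0.642 at 5544931. The pair of chromosome 13 starting at 53777248, with 11% ± 0.913 and 0.260% ± 0.0976, was partial by about 1 point and was not called.

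Lone pairs were discordant more often than adjacent pairs with further sites around them. The discordant share was 16.9% in lone pairs and 6.93% in the 5836 other adjacent covered pairs, so that lone minus other pairs gave 10.0 ± 0.270 points (SD, n = 3), positive in 3 of 3 libraries (exact sign-flip p = 0.25). The order held in each bin over 100 bp. In the 150-bp bin 10.7% of the lone pairs were discordant, against 2.76% of 942 other pairs. In the 300-bp bin the shares were 17.4% of lone and 9.68% of other pairs, and in the 500-bp bin 22.0% of lone and 10.2% of other pairs. Lone pairs were also less often both low, with 26.5% of lone against 50.9% of other pairs, and more often both high, with 27.2% of lone against 17.9% of other pairs. Among read-balanced pairs alone the discordant share was 4.79% in lone pairs and 2.62% in the others, so that lone minus other pairs gave 2.17 ± 0.226 points (SD, n = 3). Reads of other pairs can also come from fragments to further sites, and 38.8% of those pairs were read-balanced, against 63.7% of the lone pairs.

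**Figure D5:**
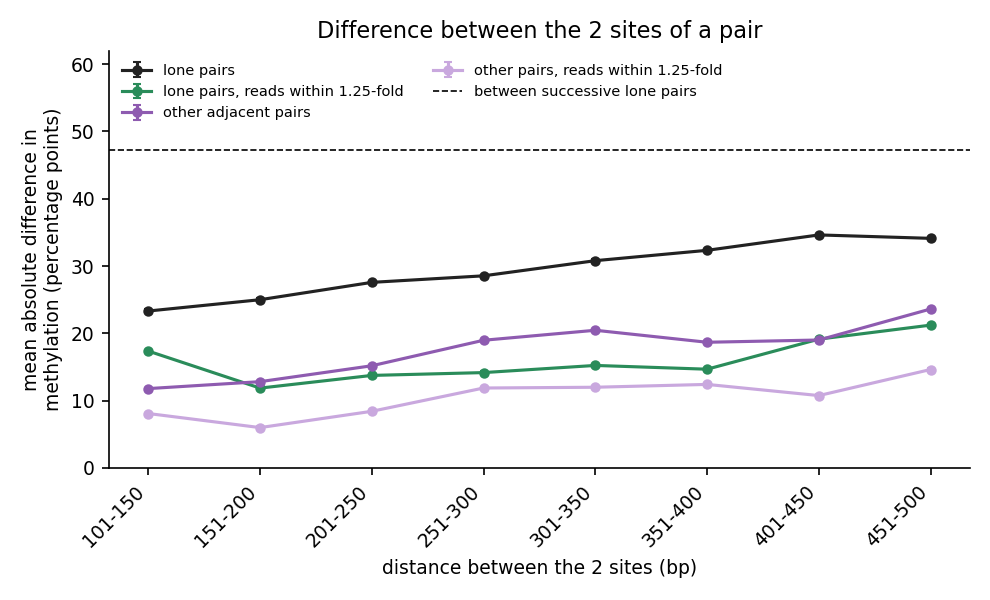
Mean absolute difference in methylation (percentage points) between the 2 sites of a pair by distance in bp, as the mean over 3 libraries with SD bars that are mostly smaller than the points, for lone pairs and other adjacent covered pairs, each also restricted to reads within 1.25-fold; the dashed line marks facing sites of successive lone pairs. Lone pairs lie above other pairs in every bin, and all lie below the dashed line at 47.3 points.

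The course with distance was also read within ranges of the gap to the nearest other listed site. With that gap over 5000 bp, 8.15% of 135 lone pairs 150 bp or less apart, 13.8% of 492 over 150 and up to 300 bp apart and 18.0% of 490 over 300 bp apart were discordant. With a gap over 2000 and up to 5000 bp the shares of near, middle and far pairs were 9.9%, 16.8% and 21.4%. With a gap up to 2000 bp they were 16.7%, 17.1% and 21.2%, so that near and middle pairs hardly differed there. The median summed reads of the less read site were 768, 800.5 and 833 from the shortest to the longest gap. With the gap over 5000 bp they were 106, 792 and 1309 in near, middle and far pairs. Lone pairs were also ranked by the reads of the less read site, which tends to place pairs with unequal reads low as well. Of the 908 lowest (at most 363 reads) 28.3% were discordant and 37.9% read-balanced. Of the 907 highest (1380 or more) 6.06% were discordant. Among these 907 the share was 4.84% of 351 middle pairs and 6.83% of 556 far pairs, and 92.0% of them were read-balanced. Among the 908 it was 10.7% of 299 near, 32.6% of 334 middle and 42.2% of 275 far pairs, of which 75.6%, 32.6% and 3.27% were read-balanced. The parts of depth, read balance and distance in the discordant share were not tested apart.

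All 19 autosomes held discordant lone pairs. The discordant share ranged between 11.5% of 131 pairs on chromosome 10 and 26.7% of 116 on chromosome 3, the lowest and the highest of 19, with exact intervals of 6.55% to 18.2% and 18.9% to 35.7%; no test was made between chromosomes. Chromosome 3 also had the smallest share of read-balanced pairs (54.3%), while chromosome 10 had 68.7%. On chromosome 18 the discordant share was 25.4% of 71 pairs with 64.8% read-balanced.

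A single site stood apart in depth. The site of chromosome 17 at 39981186 had 99173, 102221 and 112779 reads in the 3 libraries, in sum 314173 or 4.18% of all reads of lone pairs, while its partner at 39981605 had 505, 558 and 545. The levels were 38.2%, 40.0% and 38.4% at the first site and 49.1%, 54.8% and 51.2% at the second. No other site of a lone pair had over 10000 summed reads. In the class shares this site counts as a part of 1 pair.

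The edges of the rule gave these values. Lone pairs over 480 bp apart were discordant in 27.5% of 120, and pairs over 500 and up to 520 bp apart, just outside, in 11.8% of 93. With the nearest other site up to 1050 bp away 21.4% of 42 pairs were discordant, and with it over 950 and up to 1000 bp away, just outside, 11.8% of 51. With 10 to 14 reads at the least read site and library 21.7% of 143 pairs were discordant, and with 5 to 9 reads, just outside, 20.7% of 271.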

How the data were processed

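DNA methylation was measured by DREAM in 3 libraries of ID8. Per the labels' protocols, DNA with spiked methylation standards was cut by SmaI and then XmaI and sequenced on an Illumina HiSeq2500. The submitters' processing notes name Bowtie2 and SAMtools, with mm9 and rn4 as builds, and mm9 stands in the identifiers of the sites. The authors deposited counts of methylated, unmethylated and total reads for 173449 sites per library, which are not normalized. They also deposited a raw percent and an adjusted percent, in which the odds are multiplied by 1 factor per library (2.02, 1.81 and 1.73 from the values); where the factor comes from is not stated. Their table of the whole series holds the summed counts of 46411 sites; all totals equalled those of the libraries.

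Levels were computed from the counts (Python 3.11.15, pandas 2.3.3, scipy 1.17.1) as the mean of the 3 libraries, after a minimum of 10 reads in each. Distances are differences of listed positions on chromosomes 1 to 19. Fisher's test was run on simulated counts first. Intervals are exact Clopper-Pearson and cover counting error only, since copies of a molecule may be counted more than once. Pairs were named by depth: the 5 deepest both-low, both-high, both-partial and other partial pairs, the 8 deepest and the 5 closest discordant called pairs; the pairs with the most unequal reads, the deepest site and the split by read balance were chosen after the data were seen. The members and lists were chosen with earlier results of these data known. Alternatives were a minimum of 50 reads, the adjusted percent, a gap of 2000 bp, class limits of 20% and 80%, other tests, and each library left out. The sequence between sites was not analysed here.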

Additional observations from a re-analysis of the deposited data

Results flagged for a closer look

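Lone pairs on chromosome X were outside the comparisons. Of 418 listed there, 53 were covered, and 30 of these (56.6%, exact interval 42.3% to 70.2%) were partial, against 29.2% of the autosomal lone pairs; 7 were discordant. Their sites held 112197 summed reads, and the difference from the autosomes was not tested.

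Signal was also found in lone pairs that missed the read minimum in some library. Of 5498 such autosomal pairs, 743 had at least 10 summed reads at both sites. From the summed counts 16.3% of them were discordant, 18.8% both low, 21.5% both high and 43.3% partial, with a median distance of 215 bp. Levels here may rest on as few as 10 summed reads. In covered lone pairs with 10 to 14 reads at the least read site and library the partial share was 39.9%. Whether few reads raised the partial share was not tested.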

How the results depend on the processing

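Shares of both-low, both-high, discordant and partial lone pairs were 28.2%, 28.7%, 14.4% and 28.7% with at least 50 reads per library, and 24.1%, 31.2%, 16.8% and 28.0% by the authors' adjusted percent. With no other site within 2000 bp the first 3 were 27.9%, 26.2% and 16.5%, with class limits of 20% and 80% the shares were 30.0%, 23.8%, 18.0% and 28.2%, and in read-balanced pairs 35.9%, 32.0%, 4.85% and 27.2%. Leaving out 1 library gave 26.3% to 26.5% both low, 27.2% to 27.6% both high, 16.9% to 17.1% discordant and 29.0% to 29.5% partial. Read-balanced pairs made up 71.2% with at least 50 reads and 63.9% to 64.0% without 1 library. Called pairs numbered 397 of 1733 with p-values adjusted over read-balanced pairs alone (400 with the adjustment over all pairs). They numbered 778 of 2111 with at least 50 reads and 809 of 2091 with no other site within 2000 bp. Under the other alternatives they numbered 1070 to 1497 of 2722, the last without the size limit. The shares of all adjacent pairs called under these alternatives are not given here. The difference between close and distant pairs was -8.57 to -10.8 points under all alternatives but the read-balanced one, where it was -0.00864; with 100 bp as the limit it rests on 3 close pairs. The difference from other pairs stayed at 8.26 to 10.7 points, and 2.17 in read-balanced pairs. That from successive pairs stayed at -17.2 to -20.0, and -32.0 in read-balanced pairs. The causes of these shifts were not tested. No paired analysis was possible because there is only 1 group of samples; the differences above are taken within each library. By bin of distance, the discordant share moved by over 1.5 times at 50 reads in the 200-bp bin alone (5.46%, against 13.0%), and in every bin over 100 bp in read-balanced pairs.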
